A study of Mus musculus with 36 samples.

Results

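The genes described here are 10 feedback inhibitors of mitogen-activated protein kinase (MAPK) signalling: the dual-specificity phosphatases Dusp4, Dusp5, Dusp6, Dusp8 and Dusp10, the Sprouty genes Spry1, Spry2 and Spry4, and the Sprouty-related genes Spred1 and Spred2. They were chosen by name, and each was found in the counts table through its Ensembl identifier, so that the 10 make up 10 of 48795 identifiers. All 10 passed the filter on low counts, as 15901 genes did. Their transcripts were counted by sequencing of mRNA (stranded kit) from pericyte-like cells of the mouse lung. These cells were grown out of lung digests, freed of cells carrying CD31, CD45 or CD326 and then selected for PDGFRβ. The cells received injured BALF (bronchoalveolar lavage fluid from injured lungs), uninjured BALF or media only, for 6 or 24 h. Each fluid was mixed in equal parts with a medium of reduced serum, and in media only phosphate-buffered saline took the place of the fluid, so every group shared the reduced serum. The sources used here do not give the kind of injury, the strain or the age of the mice. Each treatment at each time had 3 female and 3 male libraries, which gives 12 groups, 36 libraries and n = 6 for a treatment at a time.

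MAPK cascades carry signals from growth factor and stress receptors through tiers of kinases to ERK, p38 and JNK, which are switched on by phosphorylation of a threonine and a tyrosine. Dual-specificity phosphatases remove both phosphates. Dusp4 and Dusp5 act in the nucleus and Dusp6 in the cytoplasm, with ERK as the main target of Dusp5 and Dusp6, while Dusp8 and Dusp10 act on JNK and p38. Sprouty and Spred proteins sit further up and dampen the step from receptor tyrosine kinases through Ras and Raf to ERK. Several of these genes are themselves transcribed when ERK is active, and they are therefore known as negative feedback genes. In the developing lung, Sprouty genes are known as brakes on fibroblast growth factor signalling.

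Total counts per library ran from 17134840 to 35991683, and the 10 genes had between 70 counts (Dusp8) and 6970 counts (Dusp4) in a library. Whether the 3 libraries of a sex and group stand for different animals or cultures is not labelled, and p-values therefore measure the spread between these samples, which may be technical. In 10 of 12 groups the libraries with numbers 1 and 2 resembled each other most, with a median biological coefficient of variation of 8.30% between them, against 24.4% between numbers 1 and 3. Pdgfrb, which encodes the receptor used for selection, lay between 256 and 861 CPM (counts per 1000000 of the scaled library total). Of 10 pericyte markers, Higd1b was at 0 in all 36 libraries, and Kcnj8 did not exceed 0.480 CPM nor Abcc9 0.642 CPM. Others of the list were higher, with Mcam at 30.9 to 292 CPM, Cspg4 at 14.1 to 270 CPM and Notch3 at 8.91 to 86.1 CPM. The fibroblast collagen Col1a1 lay at 5300 CPM or more, while the fibroblast marker Lum lay at 0.673 to 8.84 CPM. The smooth muscle marker Acta2 lay at 3129 to 11275 CPM. Over the libraries, 5 neutrophil markers summed to 0.0452 to 5.47 CPM, 5 lymphocyte markers to 0.0300 to 0.609 CPM and 6 epithelial markers to 5.18 to 29.9 CPM, with Krt19 at up to 18.8 CPM and Epcam at 0 in 25 libraries. The cultures thus carried some but not all of the defining pericyte transcripts. The description number begins with other digits in 4 libraries, namely replicate 3 of male media at 6 h and at 24 h, replicate 2 of female media at 24 h and replicate 3 of male uninjured BALF at 24 h. In these 4 libraries 8 macrophage markers summed to 16.9 to 20.5 CPM, against 37.0 to 85.2 CPM in the other 32, and 8 endothelial markers to 7.86 to 15.3 CPM, against 25.0 to 179 CPM. None of them is of injured BALF.

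Promoter windows were available for 8 of the 10 genes (RefSeq, GRCm38.p6, 250 bases before to 50 bases after the gene's start). The windows of 4 genes, chosen after their values were seen, are shown because these genes moved furthest in either direction in uninjured BALF: Dusp5 and Dusp10 were higher at 6 h, and Dusp8 and Spry1 were lower. Capitals mark matches, on either strand, to a CArG box (the site of serum response factor), to the cAMP response element TGACGTCA or to its core TGACG.
Dusp5: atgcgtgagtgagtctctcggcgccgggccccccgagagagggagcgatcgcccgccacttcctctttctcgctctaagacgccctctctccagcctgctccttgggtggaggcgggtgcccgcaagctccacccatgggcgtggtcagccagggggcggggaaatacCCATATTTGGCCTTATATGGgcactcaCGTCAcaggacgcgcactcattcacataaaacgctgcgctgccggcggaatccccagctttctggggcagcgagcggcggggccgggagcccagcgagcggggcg
Dusp10: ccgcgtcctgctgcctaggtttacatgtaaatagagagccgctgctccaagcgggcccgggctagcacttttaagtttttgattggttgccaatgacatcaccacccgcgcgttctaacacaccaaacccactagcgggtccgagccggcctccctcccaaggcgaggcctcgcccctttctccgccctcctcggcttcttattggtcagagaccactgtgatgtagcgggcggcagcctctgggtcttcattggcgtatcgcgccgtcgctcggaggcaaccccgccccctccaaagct
Dusp8: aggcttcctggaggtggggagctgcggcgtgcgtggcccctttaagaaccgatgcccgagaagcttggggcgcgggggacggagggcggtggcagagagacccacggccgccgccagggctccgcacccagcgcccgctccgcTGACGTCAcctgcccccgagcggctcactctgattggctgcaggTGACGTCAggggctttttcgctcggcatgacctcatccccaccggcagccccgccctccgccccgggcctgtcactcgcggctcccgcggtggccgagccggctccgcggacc
Spry1: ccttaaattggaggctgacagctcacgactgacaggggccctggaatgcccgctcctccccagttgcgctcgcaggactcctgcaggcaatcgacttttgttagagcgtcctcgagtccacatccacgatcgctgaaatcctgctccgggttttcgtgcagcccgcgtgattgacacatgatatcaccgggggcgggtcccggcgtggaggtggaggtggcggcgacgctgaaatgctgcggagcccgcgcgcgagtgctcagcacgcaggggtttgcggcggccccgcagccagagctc
The Dusp5 window lies at chr19:53528895-53529194 on the plus strand. It holds 2 adjacent CArG boxes, from 82 to 73 and from 72 to 63 bases before the start site, and a core from 55 to 51 bases before it. A CArG box occurs in 1.63% of 32851 promoter windows of the same length, and 2 or more in 0.0183%. The Dusp8 window, at chr7:142095235-142095534 on the minus strand, holds 2 full cAMP response elements, from 107 to 100 and from 63 to 56 bases before the start. A full element occurs in 1.79% of the windows and 2 or more in 0.0396%, and each full element also contains the core on both strands. The Dusp10 window, at chr1:184034131-184034430 on the plus strand, and the Spry1 window, at chr3:37639697-37639996 on the plus strand, hold none of these 3 motifs. The AP-1 motif TGANTCA (in 7.81% of the windows), the ETS motif CCGGAAG (8.86%), the E-box CACGTG (7.15%) and an NF-kB motif (8.46%) matched none of the 8 windows, and the core, found in 20.8% of the windows, also matched Spred2. The Sp1 motif GGGCGG, found in 35.7% of the windows, matched 6 of the 8. These matches describe the letters of the windows only.

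In GENCODE M21 on GRCm38, Dusp5 (ENSMUSG00000034765) lies at chr19:53529109-53542431, Dusp10 (ENSMUSG00000039384) at chr1:184013302-184075636 and Spry1 (ENSMUSG00000037211) at chr3:37639947-37644598, all on the plus strand. Dusp8 (ENSMUSG00000037887) lies at chr7:142079490-142095843 on the minus strand. The starts used for the Dusp5, Dusp8 and Dusp10 windows lie inside these spans. Taken per kilobase of exon, the median level over the 36 libraries was highest for Dusp4, at 41.7 CPM per kb, followed by Spry2 at 19.3, Dusp5 at 16.5 and Spred1 at 12.7 CPM per kb. Spry1 stood at 11.01, Dusp6 at 10.9, Dusp10 at 9.16, Spred2 at 9.07 and Spry4 at 4.18 CPM per kb, and Dusp8 was the lowest at 2.58 CPM per kb. The highest group mean was at 6 h in BALF for 8 of the 10 genes, in uninjured BALF for Dusp4, Dusp5, Dusp10, Spred1 and Spred2 and in injured BALF for Dusp6, Spry2 and Spry4. Dusp8 and Spry1 ran the other way, with the highest group mean in media at 24 h. Dusp5, Dusp8, Dusp10, Spry1 and Spry4 overlap annotated genes on the opposite strand. The sources used here do not state how strand was used in counting, so reads of these partners cannot be told apart from theirs.

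**Figure D1:**
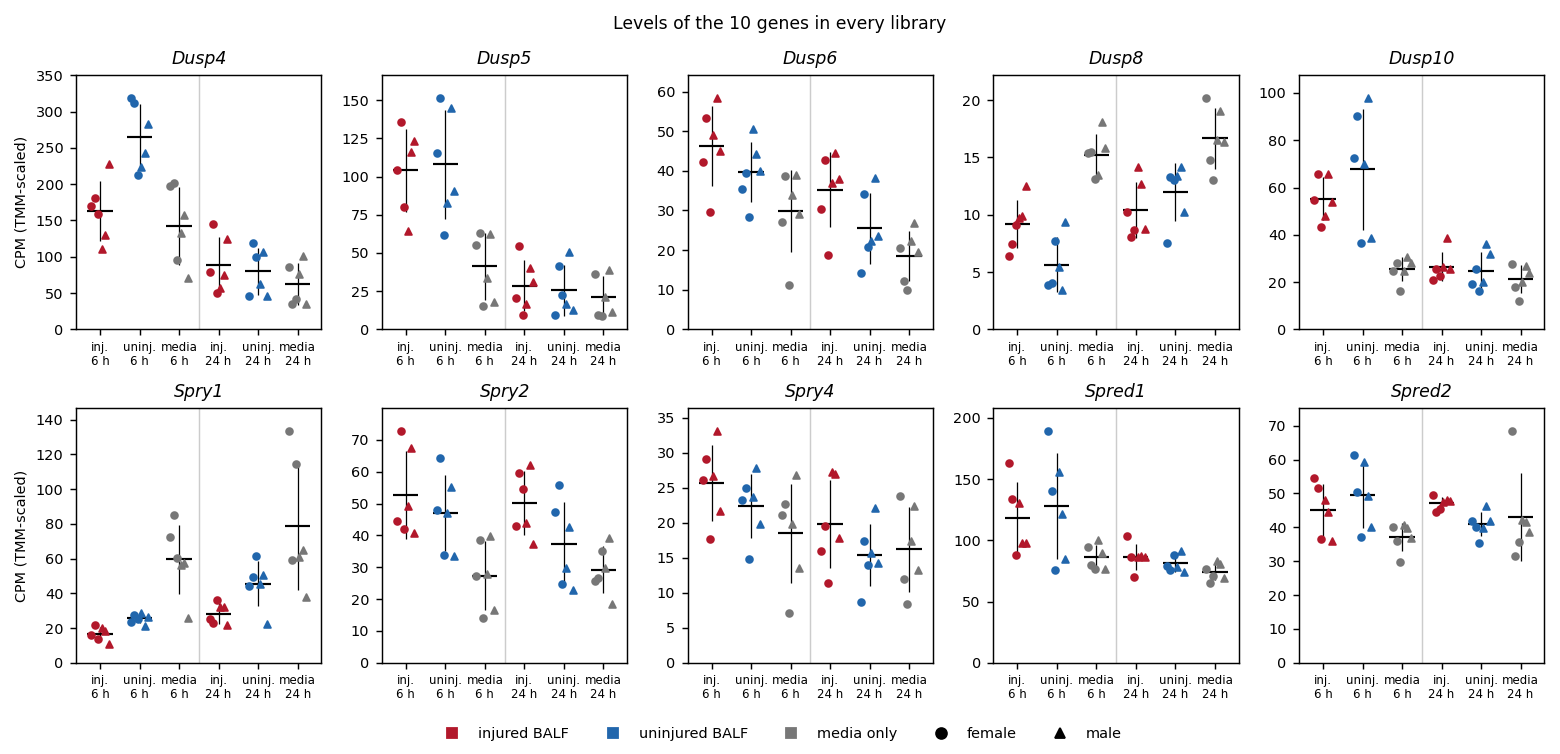
Level of each gene in every library, in CPM on TMM-scaled totals (y axis, linear, from 0), for injured BALF (inj.), uninjured BALF (uninj.) and media at 6 h and then at 24 h; circles are female and triangles male libraries, horizontal bars are means and vertical lines 1 SD (n = 6). Dusp8 and Spry1 are lowest in BALF at 6 h, while Dusp4, Dusp5 and Dusp10 are highest there.

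Most of these genes differed between BALF and media at 6 h, but not every call was firm. Against media, 8 of the 10 genes passed the test in uninjured BALF, 6 upward (Dusp4, Dusp5, Dusp10, Spry2, Spred1 and Spred2) and 2 downward (Dusp8 and Spry1). Over all genes tested, 18.4% passed in that comparison, 10.6% upward and 7.82% downward, at an adjusted p under 0.05 (edgeR, Benjamini-Hochberg over 15901 genes). In injured BALF 6 of the 10 passed, Dusp5, Dusp10, Spry2 and Spred1 upward and Dusp8 and Spry1 downward, against 25.2% of all genes, 13.9% upward and 11.4% downward. Both comparisons use the same 6 media libraries. In uninjured BALF, Dusp8, Dusp10 and Spry1 alone passed at an adjusted p under 0.01 or with libraries 1 and 2 summed (edgeR). Without all libraries numbered 1, Dusp10 and Spry1 alone passed in injured BALF. The median log2 fold change of the 10 genes was 0.47 for injured BALF and 0.49 for uninjured BALF, beside -0.01 over all genes in each comparison.

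**Figure D2:**
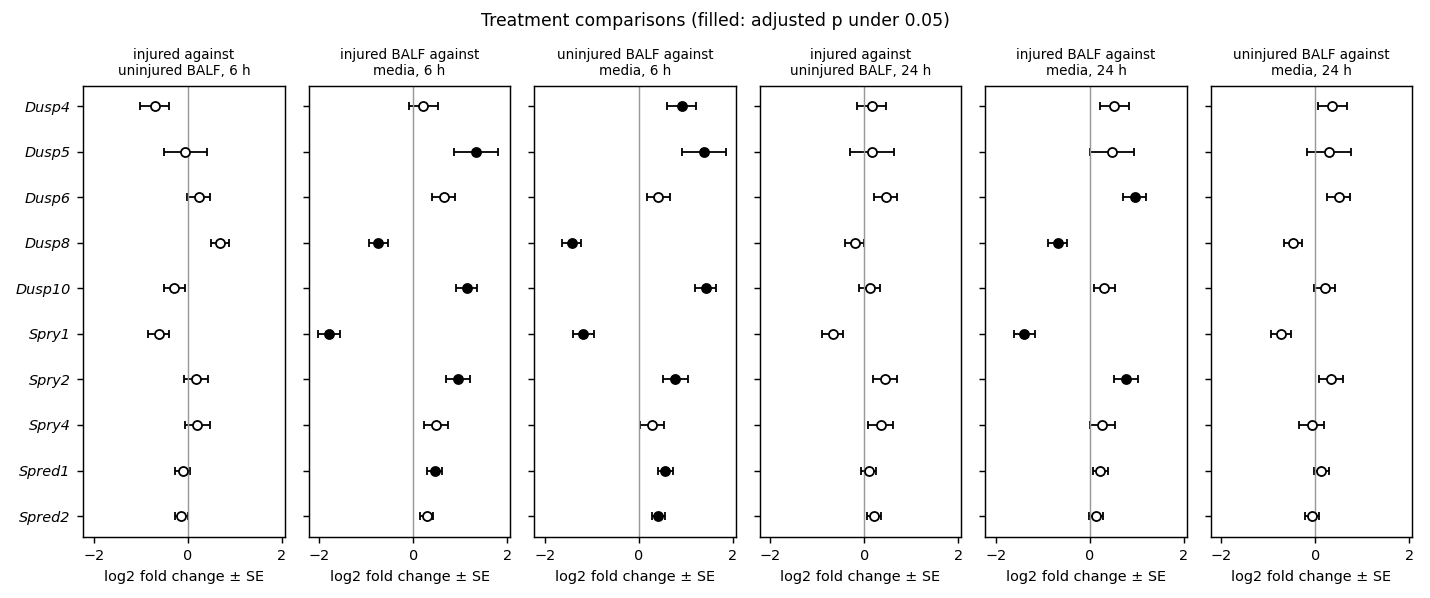
Log2 fold change (x axis) of each gene (rows) in the 3 treatment comparisons at 6 h (left 3 panels) and at 24 h (right 3 panels), with bars of 1 standard error (n = 6 against 6); filled points passed at an adjusted p under 0.05 and open points did not. In uninjured BALF at 6 h 8 points are filled, and in injured against uninjured BALF none is filled at either time.

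Among the nuclear phosphatases, Dusp4, which acts on ERK and JNK, was read at 110.2, 164 and 227 CPM (lowest, median and highest of 6 libraries) in injured BALF at 6 h, at 213, 263 and 319 CPM in uninjured BALF and at 70.2, 145 and 202 CPM in media. Every library of uninjured BALF lay above every library of media, as for 7.18% of all genes, while those of injured BALF overlapped both. Dusp4 rose in uninjured BALF by 0.91 ± 0.31 on the log2 scale (± standard error; edgeR adjusted p = 0.040). In injured BALF its fold change against media was 0.21 ± 0.31 (edgeR adjusted p = 0.67).

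Dusp5, which is specific for ERK, was read at 64.5, 110.2 and 136 CPM in injured BALF at 6 h, at 62.0, 103 and 152 CPM in uninjured BALF and at 15.6, 44.4 and 63.0 CPM in media. All 6 injured BALF libraries lay above all 6 media libraries, as for 9.41% of all genes, and those of uninjured BALF overlapped media only at 62.0 and 63.0 CPM. It rose by 1.34 ± 0.47 in injured BALF (edgeR adjusted p = 0.035) and by 1.40 ± 0.47 in uninjured BALF (edgeR adjusted p = 0.037), each against media.

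The JNK and p38 phosphatases moved in opposite directions. Dusp10 was read at 43.5, 54.4 and 65.9 CPM in injured BALF at 6 h, at 36.5, 71.2 and 98.0 CPM in uninjured BALF and at 16.1, 26.5 and 30.5 CPM in media. All libraries of either BALF lay above all of media, as for 9.41% of all genes with injured and 7.18% with uninjured BALF. Dusp10 rose by 1.13 ± 0.23 in injured BALF (edgeR adjusted p = 3.9e-04) and by 1.42 ± 0.23 in uninjured BALF (edgeR adjusted p = 5.8e-05). The low values of uninjured BALF, 36.5 and 38.8 CPM, belonged to its female and male libraries numbered 3. In these 2 libraries 5 mesothelial markers summed to 48.3 CPM (female) and 144 CPM (male), against 20.2 to 25.2 CPM in the other 4 of the group. The 8 endothelial markers summed there to 136 and 173 CPM, against 25.4 to 75.9 CPM, and the 10 pericyte markers to 739 and 618 CPM, against 922 to 1045 CPM. The libraries numbered 3 of injured BALF also stood apart, with mesothelial sums of 43.1 CPM (female) and 130.1 CPM (male), against 17.8 to 21.95 CPM, as did female media replicate 3 at 53.2 CPM, against 13.5 to 28.8 CPM in the other media libraries. Without all libraries numbered 3, the fold change of Dusp10 was 1.11 in injured BALF (edgeR adjusted p = 0.00099) and 1.61 in uninjured BALF (edgeR adjusted p = 5.1e-05). That of Dusp5 was then 0.96 in injured BALF (edgeR adjusted p = 0.20) and 1.204 in uninjured BALF (edgeR adjusted p = 0.12). That of Dusp4 was -0.24 in injured BALF (edgeR adjusted p = 0.64) and 0.67 in uninjured BALF (edgeR adjusted p = 0.13). In uninjured BALF, Dusp8, Dusp10, Spry1, Spry2, Spred1 and Spred2 still passed. The part of these other cell types in the changes was not tested. Dusp8, the least abundant of the 10, was read at 6.42, 9.41 and 12.5 CPM in injured BALF, at 3.42, 4.75 and 9.35 CPM in uninjured BALF and at 13.1, 15.4 and 18.04 CPM in media. All libraries of either BALF lay below all of media, as for 5.87% of all genes with injured and 3.87% with uninjured BALF, and the lowest values were those of uninjured BALF. Dusp8 fell by 0.75 ± 0.20 in injured BALF (edgeR adjusted p = 0.0054) and by 1.43 ± 0.20 in uninjured BALF (edgeR adjusted p = 1.0e-05).

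Among the Sprouty genes, which act between receptor tyrosine kinases and Ras and Raf, Spry1 and Spry2 also parted. Spry1 was read at 10.6, 17.2 and 21.8 CPM in injured BALF at 6 h, at 21.3, 26.1 and 28.7 CPM in uninjured BALF and at 26.0, 58.9 and 85.1 CPM in media. Injured BALF lay wholly below media, as for 5.87% of all genes. Uninjured BALF overlapped the lowest media library, which was male media replicate 3. Spry1 fell by 1.80 ± 0.23 in injured BALF (edgeR adjusted p = 1.1e-06) and by 1.18 ± 0.22 in uninjured BALF (edgeR adjusted p = 4.1e-04). Spry2 was read at 40.6, 46.9 and 72.7 CPM in injured BALF, at 33.4, 47.6 and 64.2 CPM in uninjured BALF and at 14.05, 27.5 and 39.8 CPM in media. The injured BALF libraries lay above all media libraries, as for 9.41% of all genes, and the uninjured ones overlapped them. Spry2 rose by 0.95 ± 0.26 in injured BALF (edgeR adjusted p = 0.0070) and by 0.78 ± 0.26 in uninjured BALF (edgeR adjusted p = 0.033).

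The Spred proteins bring the Ras inhibitor neurofibromin to the membrane. Spred1 was read at 88.2, 114 and 163 CPM in injured BALF at 6 h, at 75.6, 131 and 189 CPM in uninjured BALF and at 76.4, 84.8 and 100.2 CPM in media, with overlapping groups. It rose by 0.45 ± 0.16 in injured BALF (edgeR adjusted p = 0.042) and by 0.57 ± 0.16 in uninjured BALF (edgeR adjusted p = 0.015). Spred2 was read at 35.98, 46.3 and 54.5 CPM in injured BALF, at 37.1, 49.8 and 61.4 CPM in uninjured BALF and at 29.7, 38.3 and 40.6 CPM in media. It rose by 0.42 ± 0.14 in uninjured BALF (edgeR adjusted p = 0.043), and its value of 0.28 ± 0.14 in injured BALF did not pass (edgeR adjusted p = 0.16).

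Dusp6 and Spry4, which are among the best known targets of ERK in development, did not pass against media at 6 h. Dusp6 ranged from 29.5 to 58.4 CPM in injured BALF, from 28.2 to 50.6 CPM in uninjured BALF and from 11.1 to 38.9 CPM in media, with log2 fold changes of 0.64 ± 0.24 in injured BALF (edgeR adjusted p = 0.051) and 0.41 ± 0.24 in uninjured BALF. Spry4 ranged from 17.7 to 33.1 CPM in injured BALF, from 14.9 to 27.8 CPM in uninjured BALF and from 7.10 to 26.8 CPM in media. Its fold changes were 0.48 ± 0.26 in injured BALF and 0.28 ± 0.26 in uninjured BALF. For Dusp6 the call in injured BALF turned on single libraries, with an adjusted p of 0.012 without female media replicate 2 and 0.032 without female injured BALF replicate 3 (edgeR). It also turned on the tool and the filter: DESeq2 called Dusp6 there at 0.64 (adjusted p = 0.038), as did edgeR with no filter on low counts (adjusted p = 0.043) or with 1 CPM or more required in 6 libraries (adjusted p = 0.046).

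The calls against media at 6 h were not equally firm. In uninjured BALF, Dusp8, Dusp10 and Spry1 passed whichever of the 12 libraries was left out, and the other 5 lost the call without some. Dusp4 passed only without female media replicate 1 or 2, male media replicate 2 or female uninjured BALF replicate 3, and its adjusted p was 0.051 to 0.12 without any of the other 8 (edgeR). Dusp5 lost it without female media replicate 3, male media replicates 1 and 3, female uninjured BALF replicates 1 and 2 and male uninjured BALF replicate 2 (edgeR adjusted p = 0.063 to 0.10). Spry2 lost it without replicates 1 or 3 of female or male media or replicates 1 or 2 of female or male uninjured BALF (edgeR adjusted p = 0.053 to 0.10). Spred1 lost it without replicate 1 of female or male uninjured BALF (edgeR adjusted p = 0.064 to 0.084), and Spred2 without any of 9 libraries, all but female media replicate 1 and the female and male uninjured BALF replicates 3 (edgeR adjusted p = 0.062 to 0.14). With libraries 1 and 2 of each group summed to 1, or without the 4 libraries of differing description number, 3 genes passed, and these were Dusp8, Dusp10 and Spry1. In injured BALF, Dusp8, Dusp10, Spry1 and Spry2 passed whichever single library was left out. Dusp5 lost the call without female media replicate 3, male media replicates 1 and 3, female injured BALF replicates 1 and 2 and male injured BALF replicates 2 and 3 (edgeR adjusted p = 0.052 to 0.098). Spred1 lost it without replicates 2 or 3 of female or male media, female injured BALF replicates 1 and 2 and male injured BALF replicate 1 (edgeR adjusted p = 0.066 to 0.14). With libraries 1 and 2 summed, Dusp8 stood at -0.67 in injured BALF (edgeR adjusted p = 0.063). Without all libraries numbered 1 the call was lost for Dusp8 (edgeR adjusted p = 0.074) and Spry2 (0.11), and without those numbered 2 for Dusp8 (0.12).

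Macrophage transcripts were lowest in a media library at 6 h. The 8 macrophage markers summed to 59.5 to 85.0 CPM in injured BALF, 58.5 to 82.3 CPM in uninjured BALF and 17.3 to 69.0 CPM in media at 6 h, where male media replicate 3 had 17.3 CPM and the other 5 libraries 53.6 CPM or more. No marker of this list was at 0 in all libraries, with Lyz2 the most abundant at a median of 39.4 CPM. Their part in the changes of the 10 genes was not tested. In bulk RNA, a change in the share of a cell type and a change in RNA per cell cannot be told apart.

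At 24 h, 4 of the 10 genes passed in injured BALF against media, where 23.7% of all genes did, 11.5% upward and 12.2% downward, and 0 in uninjured BALF, where 0.868% did. In uninjured BALF 2 of the 10 had an unadjusted p under 0.05 (edgeR), and DESeq2 called 0. Dusp6 rose by 0.96 ± 0.25 (edgeR adjusted p = 0.0052), averaging 35.2 ± 9.48 CPM in injured BALF (SD, n = 6), 25.6 ± 8.96 CPM in uninjured BALF and 18.6 ± 6.36 CPM in media. Spry2 rose by 0.78 ± 0.26 (edgeR adjusted p = 0.027), at 37.3, 49.3 and 62.2 CPM in injured BALF, 22.9, 36.2 and 55.7 CPM in uninjured BALF and 18.4, 28.3 and 39.3 CPM in media. The groups overlapped for both genes. Spry2 lost its call without female injured BALF replicate 2, male injured BALF replicate 2, female media replicate 1 or male media replicate 3 (edgeR adjusted p = 0.053 to 0.075).

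Spry1 and Dusp8 were still below media at 24 h. Spry1 was read at 21.9, 28.6 and 36.1 CPM in injured BALF, at 22.6, 47.4 and 61.4 CPM in uninjured BALF and at 38.1, 63.0 and 133 CPM in media, so that injured BALF lay wholly below media, as 4.08% of all genes did. It fell by 1.40 ± 0.22 (edgeR adjusted p = 4.0e-05). Dusp8 was read at 8.08, 9.49 and 14.1 CPM in injured BALF, at 7.56, 13.2 and 14.2 CPM in uninjured BALF and at 13.0, 16.4 and 20.2 CPM in media, and it fell by 0.69 ± 0.19 in injured BALF (edgeR adjusted p = 0.011). In uninjured BALF, Spry1 had a fold change of -0.73 ± 0.22 (edgeR adjusted p = 0.14), with 0.044 without female media replicate 2, and Dusp8 had -0.48 ± 0.19 (edgeR adjusted p = 0.32). Dusp4, Dusp5 and Dusp10 did not pass against media with either fluid at 24 h. In injured BALF their fold changes were 0.52 ± 0.31, 0.47 ± 0.47 and 0.31 ± 0.23, in that order. In uninjured BALF they were 0.36 ± 0.31, 0.30 ± 0.47 and 0.20 ± 0.23. Dusp4 was read at 50.3, 77.1 and 145 CPM in injured BALF, at 45.7, 80.8 and 118 CPM in uninjured BALF and at 34.9, 58.8 and 100.4 CPM in media. Dusp5 was read at 9.26, 25.6 and 54.9 CPM in injured BALF, at 9.60, 19.5 and 50.4 CPM in uninjured BALF and at 8.60, 16.3 and 38.7 CPM in media. Dusp10 was read at 20.8, 25.6 and 38.6 CPM in injured BALF, at 16.1, 22.8 and 36.2 CPM in uninjured BALF and at 12.1, 21.9 and 27.6 CPM in media. The groups overlapped almost entirely for these 3 genes.

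Spry4 ranged from 11.4 to 27.3 CPM in injured BALF at 24 h, from 8.73 to 22.2 CPM in uninjured BALF and from 8.35 to 23.9 CPM in media. Spred1 was read at 70.3, 86.3 and 104 CPM in injured BALF, at 74.1, 78.8 and 91.6 CPM in uninjured BALF and at 65.4, 73.7 and 82.8 CPM in media. Spred2 was read at 44.7, 47.6 and 49.6 CPM in injured BALF, at 35.5, 41.0 and 46.2 CPM in uninjured BALF and at 31.5, 40.2 and 68.4 CPM in media. The value of 68.4 CPM was that of female media replicate 1, and without this library Spred2 passed in injured BALF, at 0.35 (edgeR adjusted p = 0.031), against 0.14 ± 0.14 with it. The difference of the uninjured BALF effect between the times passed for Dusp10, at -1.22 ± 0.32 for 24 h minus 6 h (edgeR adjusted p = 0.038), where 1.96% of all genes passed, 1.27% downward. It was 0.95 ± 0.28 for Dusp8 (edgeR adjusted p = 0.068) and did not pass for the other 8. The Dusp10 call was lost without any of 17 of the 24 libraries of uninjured BALF and media (edgeR adjusted p = 0.050 to 0.092) and held without female media 6 h replicate 2, the female and male uninjured BALF 6 h replicates 3, female media 24 h replicates 2 and 3 and female and male uninjured BALF 24 h replicates 2. For Dusp8 the difference passed without replicate 3 of either sex in uninjured BALF at 6 h, or without replicate 1 of females in media or in uninjured BALF at 24 h (edgeR adjusted p = 0.011 to 0.042).

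Set against each other, the 2 fluids ask what injury of the donor lung adds to lavage fluid as such, and 0 of the 10 genes passed at 6 h or at 24 h, where 3.43% and 4.42% of all genes did. The unadjusted p was under 0.05 for 3 of the 10 at 6 h and 1 at 24 h (edgeR), and DESeq2 called 1 and 0. At 6 h the largest differences were those of Dusp4, at -0.70 ± 0.31 (edgeR adjusted p = 0.30), Dusp8, at 0.68 ± 0.20 (edgeR adjusted p = 0.054), and Spry1, at -0.62 ± 0.23 (edgeR adjusted p = 0.16). Dusp8 passed without female uninjured BALF replicate 3, at 0.88 (edgeR adjusted p = 0.0083), or without its male counterpart, at 0.92 (edgeR adjusted p = 0.0048). DESeq2 called Dusp8 at 0.69 (adjusted p = 0.020). At 24 h Spry1 was at -0.67 ± 0.22 (edgeR adjusted p = 0.086). It passed without female injured BALF replicate 3, at -0.77 (edgeR adjusted p = 0.048), or without male uninjured BALF replicate 3, at -0.80 (edgeR adjusted p = 0.033).

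Libraries of the same sex and number deviated together in these 2 fluids at 6 h, and the directions within such pairs are given here. How many of all genes had 6 of 6 pairs in the same direction was not counted. Libraries numbered 1 and 2 also resembled each other, so the 6 pairs may not be independent. The same limit holds for the fits with the block below. Dusp4 was lower in injured than in uninjured BALF in 6 of 6 pairs, with log2 ratios of -1.02 to -0.32, and Spry1 was lower in 6 of 6, with -1.33 to -0.23. Dusp8 was higher in injured BALF in 6 of 6 pairs, by 0.25 to 1.54 in log2 units, and Spry4 in 6 of 6, by 0.13 to 0.25. Dusp6 and Spry2 were higher in 5 of 6 pairs and Spred2 lower in 5 of 6, while Dusp5, Dusp10 and Spred1 were higher in the 2 pairs numbered 3 and lower in the other 4. With sex and number as a replicate block in the fit of all 36 libraries, Spry1 alone passed, at -0.66 (edgeR adjusted p = 0.034), with 4.73% of all genes. With the block in a fit of the 12 libraries compared, an analysis added after the data were seen, 6 genes passed where 23.7% of all genes did. Dusp4 then had -0.72 (edgeR adjusted p = 4.7e-05) and Spry1 -0.64 (0.0015), and Dusp8 had 0.74 (0.0016), Dusp6 0.22 (0.023), Spry4 0.20 (0.014) and Spry2 0.17 (0.044). The difference of the injury effect between the times passed for none of the 10 and for 0.239% of all genes, with the lowest adjusted p for Dusp8, at -0.89 ± 0.28 (edgeR adjusted p = 0.25).

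**Figure D3:**
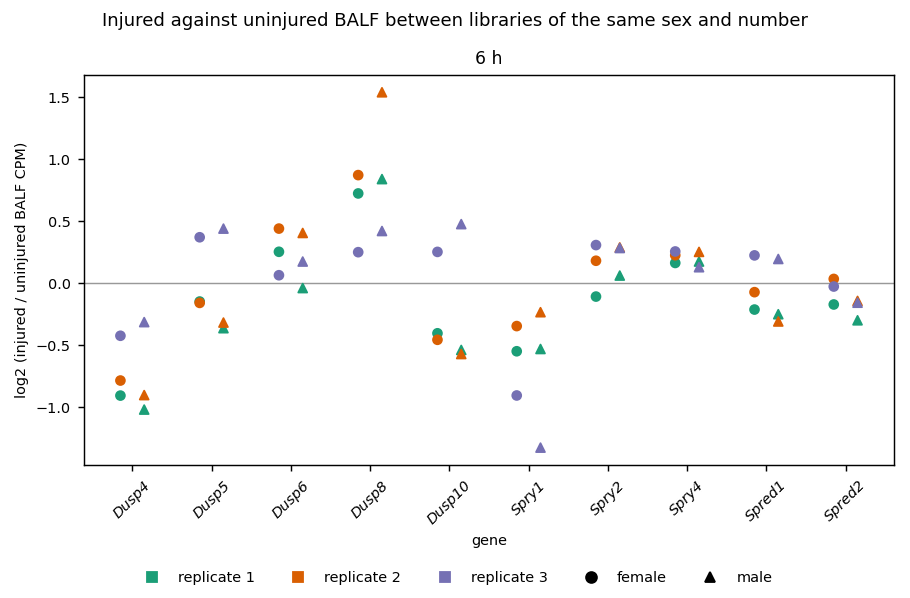
Log2 ratio of injured over uninjured BALF CPM (y axis) for each gene (x axis) between libraries of the same sex and replicate number at 6 h; circles are female and triangles male pairs, and colours give the number. All 6 pairs lie below 0 for Dusp4 and Spry1 and above 0 for Dusp8 and Spry4, and pairs numbered 3 stand apart for Dusp5 and Dusp10.

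Dusp4, Dusp5 and Dusp10 were lower at 24 h than at 6 h with either fluid. In injured BALF 5 of the 10 genes passed, where 27.0% of all genes did, 12.8% upward and 14.2% downward: Dusp4, Dusp5, Dusp10 and Spred1 fell and Spry1 rose. In uninjured BALF 6 passed, where 30.7% of all genes did, 15.2% upward and 15.5% downward, as the same 4 genes fell and Dusp8 and Spry1 rose. In media 1 passed, where 6.84% did, 3.33% downward, and that was Dusp4, which fell by 1.19 ± 0.32 (edgeR adjusted p = 0.023). Dusp5 fell by 1.86 ± 0.48 in injured BALF (edgeR adjusted p = 0.0044) and fell by 2.08 ± 0.48 in uninjured BALF (edgeR adjusted p = 0.0016), and in both fluids every 24 h library lay below every 6 h library. Its change in media was -0.99 ± 0.47 (edgeR adjusted p = 0.20). Dusp10 fell by 1.07 ± 0.22 in injured BALF (edgeR adjusted p = 7.4e-04) and by 1.47 ± 0.23 in uninjured BALF (edgeR adjusted p = 2.0e-05), again without overlap, and stood at -0.25 ± 0.23 in media. In all, 2 of the 10 genes lay wholly lower at 24 h in injured BALF and 3, with Dusp4, in uninjured BALF, where 8.87% and 8.72% of all genes did.

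Dusp4 fell by 0.88 ± 0.31 in injured BALF (edgeR adjusted p = 0.037) and by 1.74 ± 0.32 in uninjured BALF (edgeR adjusted p = 1.5e-04). Spred1 fell by 0.45 ± 0.16 in injured BALF (edgeR adjusted p = 0.044) and by 0.65 ± 0.16 in uninjured BALF (edgeR adjusted p = 0.0034). Spry1 rose by 0.77 ± 0.23 in injured BALF (edgeR adjusted p = 0.012), where every 24 h library lay above every 6 h library as for 6.77% of all genes, and by 0.82 ± 0.22 in uninjured BALF (edgeR adjusted p = 0.0060). Dusp8 rose by 1.08 ± 0.20 in uninjured BALF (edgeR adjusted p = 1.7e-04) and stood at 0.19 ± 0.20 in injured BALF (edgeR adjusted p = 0.52). Dusp6 was at -0.40 ± 0.24 in injured BALF, -0.63 ± 0.24 in uninjured BALF (edgeR adjusted p = 0.050) and -0.71 ± 0.25 in media (edgeR adjusted p = 0.073). DESeq2 called it in uninjured BALF (adjusted p = 0.036) and in media (adjusted p = 0.037). Spry2, Spry4 and Spred2 passed in none of the 3 treatments, with Spry2 between -0.35 and 0.10.

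Single libraries decided several of these changes over time. In injured BALF, Dusp4 lost its call without female 6 h replicates 1 and 2, male 6 h replicate 3, female 24 h replicates 1 and 3 or male 24 h replicates 1 and 2 (edgeR adjusted p = 0.059 to 0.13). Spred1 lost it there without female 6 h replicates 1 and 2, male 6 h replicate 1, female 24 h replicates 2 and 3 or any male 24 h library (edgeR adjusted p = 0.064 to 0.15). In media, Dusp4 lost it without replicates 1 or 2 of either sex at 6 h or replicate 3 of either sex at 24 h (edgeR adjusted p = 0.052 to 0.078). Dusp5 passed in media without female 24 h replicate 1, at -1.47 (edgeR adjusted p = 0.048), and Dusp6 without that library or female 6 h replicate 3 (edgeR adjusted p = 0.016 to 0.025). In uninjured BALF, Dusp6 passed without female 6 h replicate 3 or replicate 2 of either sex at 24 h (edgeR adjusted p = 0.011 to 0.043), and the 6 calls held without any single library. Numbers also paired libraries across the times in injured BALF. The block in the fit of all 36 libraries left the same 5 calls, where 31.1% of all genes passed, and in the fit of the 12 libraries compared, added after the data were seen, 7 genes passed with 39.2% of all genes, Dusp6 at -0.40 (edgeR adjusted p = 0.0016) and Spry4 at -0.40 (edgeR adjusted p = 0.0027) joining the 5.

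**Figure D4:**
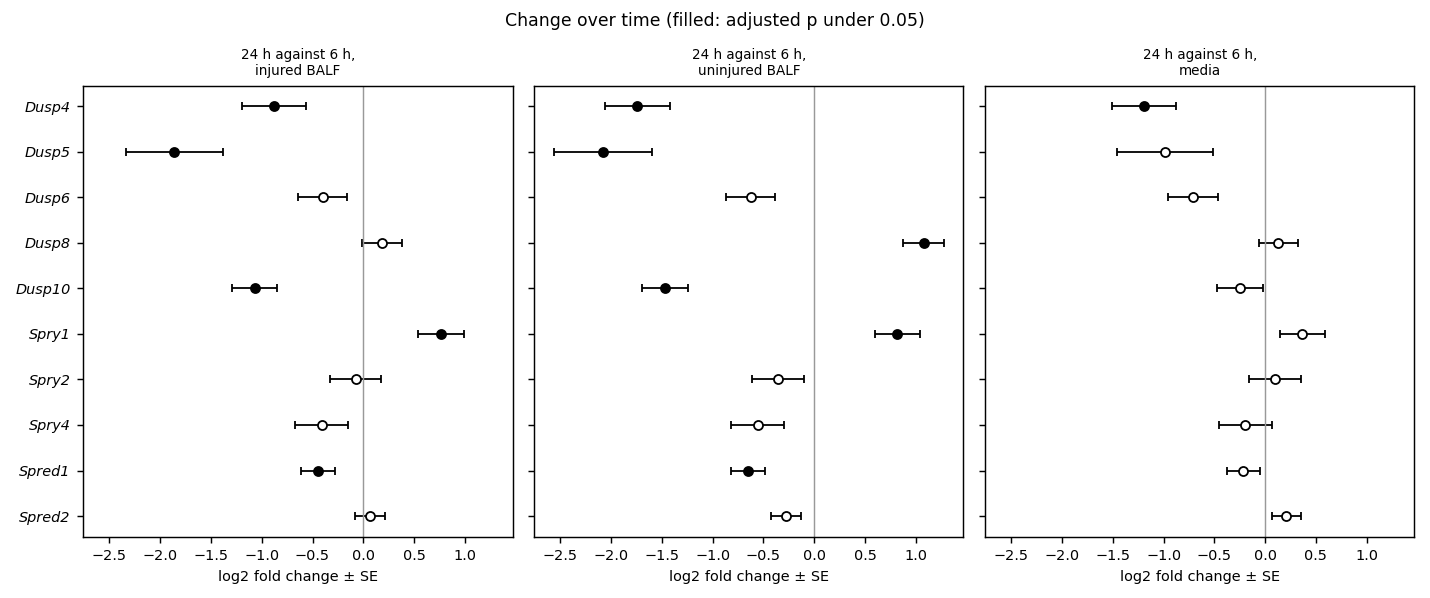
Log2 fold change of 24 h against 6 h (x axis) for each gene (rows) in injured BALF, uninjured BALF and media (panels), with bars of 1 standard error (n = 6 against 6); filled points passed at an adjusted p under 0.05. Dusp5 stands at -1.86, -2.08 and -0.99 in the 3 panels, and Spry1 lies to the right of 0 in each.

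No difference between female and male cells in these responses passed. The female minus male difference of the effect was tested for injured against uninjured BALF and for uninjured BALF against media at each time, and 0 of the 10 genes and 0 of 15901 genes passed (edgeR). The unadjusted p was under 0.05 for 0 of the 10 in each of the 4 tests and for 113 to 734 of all genes. That is fewer genes than chance alone would give, so these tests were conservative and a sex difference may have been missed. For Spry1 in uninjured BALF at 6 h the difference was -0.64 ± 0.44. Its media libraries at 6 h ranged from 60.4 to 85.1 CPM in females and from 26.0 to 57.5 CPM in males.

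Other genes of the pathway were counted from fixed lists, naming for each comparison the called genes with the lowest p-values. Their counts at 6 h stand beside the shares of all genes that passed against media, 13.9% upward and 11.4% downward in injured BALF and 10.6% upward and 7.82% downward in uninjured BALF. Among 18 transcripts known as targets of ERK, 7 rose and 1 fell in injured BALF at 6 h, and 5 rose in uninjured BALF, each against media, with a median log2 fold change of 0.44 in injured and 0.38 in uninjured BALF. The early response gene Ier3 rose by 1.89 ± 0.27 in injured and 0.83 ± 0.27 in uninjured BALF, and the growth regulator Myc by 1.22 ± 0.25 in injured and 0.94 ± 0.25 in uninjured BALF. Fosl1, a Fos family subunit of AP-1, rose by 1.52 ± 0.32 in injured and 1.74 ± 0.33 in uninjured BALF, and Etv5, an ETS factor induced by FGF signals, by 0.46 ± 0.12 in injured and 0.54 ± 0.12 in uninjured BALF. At 24 h 6 of the 18 rose in injured BALF, where 11.5% of all genes did. In uninjured BALF 0 passed at 24 h, with 2 at an unadjusted p under 0.05, and the lowest adjusted p was that of Ier3, at 0.056 (edgeR).

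Of 12 other inhibitors of Ras and ERK, 3 rose at 6 h with either fluid and 9 did not pass, where 25.2% of all genes passed in injured and 18.4% in uninjured BALF. Errfi1, a feedback inhibitor of the EGF receptor, rose by 2.17 ± 0.34 in injured and 2.10 ± 0.34 in uninjured BALF. Lrig1, a further brake on receptor tyrosine kinases, rose by 1.67 ± 0.13 in injured and 0.62 ± 0.13 in uninjured BALF, each against media. Lrig1 also rose in injured against uninjured BALF, by 1.06 ± 0.13 at 6 h (edgeR adjusted p = 4.3e-06) and 1.27 ± 0.13 at 24 h, and was the 1 gene of the 12 to pass there. Over all genes, 3.43% passed in that comparison at 6 h and 4.42% at 24 h.

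Of 10 further phosphatase, Sprouty and Spred genes that are not among those described above, 1 rose in uninjured BALF against media at 6 h, namely Dusp7, an ERK phosphatase, by 0.60 ± 0.17. In injured BALF Dusp16, which acts on JNK, rose by 0.32 ± 0.09 and Dusp9 by 1.02 ± 0.31. The immediate early phosphatase Dusp1, named after its values were seen, fell there by 0.92 ± 0.34, as the 1 gene of the 10 that did. Dusp16 was the 1 gene of these 10 that passed in injured against uninjured BALF at 6 h, by 0.45 ± 0.09 (edgeR adjusted p = 0.0029). At 24 h Dusp16 rose there by 0.47 ± 0.09 and Spry3 by 0.77 ± 0.23. Of all genes, 3.43% passed in injured against uninjured BALF at 6 h and 4.42% at 24 h.

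Among 28 receptor tyrosine kinase and ligand genes, 11 rose and 7 fell in injured BALF at 6 h, and 10 rose and 5 fell in uninjured BALF. Fgfr2, a receptor for fibroblast growth factors, fell by 1.57 ± 0.19 in injured and 1.48 ± 0.19 in uninjured BALF. The ligand gene Pdgfb rose by 3.66 ± 0.43 in injured BALF, and the receptor gene Fgfr1 rose by 0.59 ± 0.09 in uninjured BALF. Of the 19 genes of the ERK cascade itself, 1 rose and 3 fell in injured BALF, and 1 rose and 2 fell in uninjured BALF, which is near the 25.2% and 18.4% of all genes that passed in injured and uninjured BALF. Braf, a kinase above ERK, fell by 0.59 ± 0.11 in injured and 0.48 ± 0.11 in uninjured BALF, and the adaptor Gab1 by 0.61 ± 0.10 in injured and 0.30 ± 0.10 in uninjured BALF. Among 19 tested genes of the p38 and JNK cascade, 6 rose and 1 fell in injured BALF, and 4 rose and 2 fell in uninjured BALF. Map2k3, which activates p38, rose by 0.83 ± 0.12 in injured and 0.75 ± 0.12 in uninjured BALF. Map3k5 (ASK1), which feeds JNK and p38, fell by 1.23 ± 0.21 in injured and 1.29 ± 0.21 in uninjured BALF.

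Across the 36 libraries the 10 genes formed 2 patterns, given here as a description over libraries that share treatments and depth. The 28 pairs among the 8 genes other than Dusp8 and Spry1 had Pearson correlations of log2 CPM from 0.29 to 0.92, with a median of 0.61. The 16 pairs of Dusp8 or Spry1 with those 8 ran from -0.70 to -0.19, and Dusp8 with Spry1 stood at 0.59. Dusp4 with Dusp5 was the closest pair, at 0.92, followed by Dusp6 with Spry4, at 0.88. Of 10615 genes compared, the 2 most like each gene were Plaur, the urokinase receptor, at 0.964 and Nt5dc3 at 0.963 for Dusp5, and Smurf2, a ubiquitin ligase, at 0.933 and Plaur at 0.925 for Dusp4. They were Rnf4 at 0.926 and Arhgap31 at 0.925 for Dusp10, Mfsd2a at 0.927 and Hmgxb3 at 0.908 for Dusp6, and Zswim6 at 0.914 and Diaph1 at 0.911 for Spry4. For Spred1 they were Homer1 at 0.923 and Mbtd1 at 0.888, for Spry1 Nacad at 0.908 and Farp1 at 0.898, and for Spry2 Abl1 at 0.869 and Pim1 at 0.846. The likeness was lowest for Spred2, with Ell at 0.846 and Tfe3 at 0.837, and for Dusp8, with Ppp1r12b at 0.843 and Maml2 at 0.837. The gene most alike depended on the measure for some. By Spearman correlation it was Rnf40 for Dusp6, Brpf1 for Dusp10, Arrdc4 for Spry2 and Cish for Spry4. For Dusp8 it was then Maml2, at 0.902, so the low rank of Dusp8 holds for the Pearson correlation only.

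**Figure D5:**
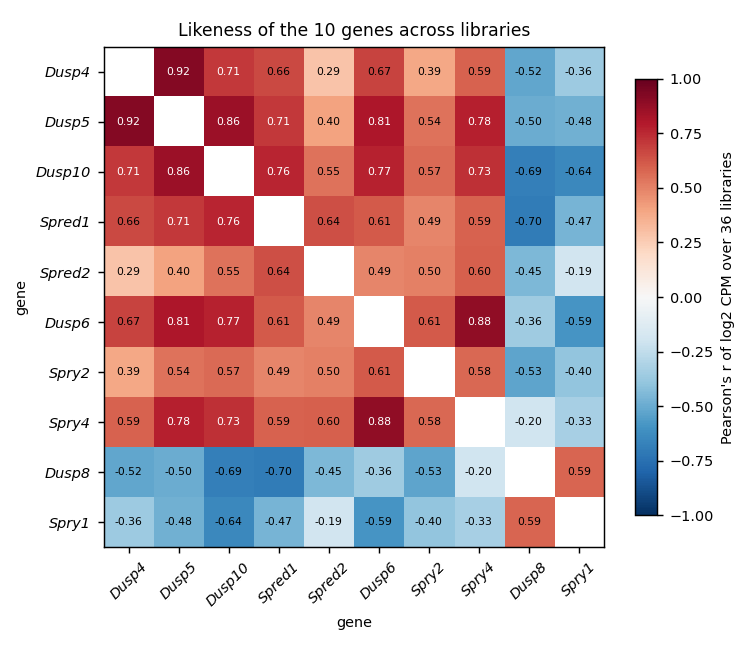
Pearson correlation of log2 CPM over 36 libraries between the 10 genes (rows and columns; colour and printed value, from -1 to 1). Dusp8 and Spry1 are negative with each of the other 8, and Dusp4 with Dusp5 reaches 0.92.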

How the data were processed

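RNA of 36 libraries was read on a stranded mRNA kit, and the authors deposited raw counts of reads per Ensembl gene for all libraries in 1 table. STAR 2.5.2b, RSEM 1.2.31, DESeq2 and the build GRCm38 are named per the submitters' processing notes, without their roles, and no source used here states how strand was counted. Symbols came from GENCODE M21, which matched 48435 of 48795 identifiers.

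The 10 genes, the pathway and marker lists and the tests were chosen with earlier results of these data known. From each pathway list, and in each comparison, the 2 called genes with the lowest p-values were to be named. Genes with a call in injured against uninjured BALF or in uninjured BALF against media were given in full and the others as ranges.

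Counts were filtered with filterByExpr over the 12 groups of treatment, time and sex, scaled by TMM and fitted with edgeR 4.0.16 in R 4.3.3 (quasi-likelihood test, 1 mean per group). Contrasts averaged both sexes, p-values were adjusted by Benjamini-Hochberg over 15901 genes, and an adjusted p under 0.05 is written as passed. The method was tested on simulated data, drawn independently for each library. The simulation did not hold the likeness between libraries seen here, so it does not give the error rate under that likeness. Total counts of 17134840 to 35991683 per library limit the precision of low genes.

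Replicate numbers came from the labels, which do not say what they mark. In injured against uninjured BALF at 6 h, deviations from the group means correlated in 6 of 6 same-numbered pairs (r = 0.58 to 0.85), and likewise for 24 against 6 h in injured BALF (r = 0.35 to 0.71), so numbers were taken to pair these libraries. Alternatives were other scalings, filters, thresholds and sample sets, a replicate block, DESeq2 1.42.0 and leaving out libraries.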

Additional observations from a re-analysis of the deposited data

Results flagged for a closer look

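Among 60 groups of 6 libraries (10 genes in 6 treatment and time groups), the highest or lowest library stood apart from the others in 2, by a gap to the next over Dixon's critical share of the group's range. Chance gives about 1 such group in 20. Dusp10 was at 38.6 CPM in male injured BALF 24 h replicate 2, against 20.8 to 26.4 CPM in the other 5 libraries of that group. Spred2 was at 68.4 CPM in female media 24 h replicate 1, against 31.5 to 42.3 CPM in the other 5.

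The difference of the uninjured BALF effect between the times passed for Dusp10, at -1.22 on the log2 scale for 24 h minus 6 h (edgeR adjusted p = 0.038). The call was lost without most of the single libraries, as given above, and in 6 of 14 other settings. Among these were only the groups compared (edgeR adjusted p = 0.089) and libraries 1 and 2 summed (edgeR adjusted p = 0.34). At 24 h Dusp10 averaged 24.8 ± 7.92 CPM in uninjured BALF and 21.4 ± 5.95 CPM in media, and at 6 h it averaged 67.7 ± 25.5 CPM in uninjured BALF and 25.4 ± 5.06 CPM in media (SD, n = 6 each).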

How the results depend on the processing

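Of 3200 values of single genes under the alternatives run, 2901 kept their direction and their side of the threshold, 61 changed sign while passing in neither fit, 179 no longer passed, 59 newly passed, and 0 passed with a turned sign. Counts of the 10 genes that passed moved as follows, and the cause was not tested. In uninjured BALF against media at 6 h (8 genes), 3 passed at an adjusted p under 0.01, 3 with libraries 1 and 2 summed, 3 without the 4 libraries of differing description number, and 3 to 8 with a library or number left out. In injured BALF against media at 6 h (6 genes) 2 to 7 passed with a library or number left out. At 24 h (4 genes) 2 passed at 0.01, 2 with libraries summed and 1 to 4 with a library or number left out. In injured against uninjured BALF at 6 h (0 genes), 1 passed in each of several settings, but not the same gene. It was Spry1 with the replicate block or without the 4 libraries, Dusp8 with sex ignored or by DESeq2, and Dusp4 with only the groups compared. With a library or number left out 0 to 1 passed, and with the block in only the groups compared 6 passed. At 24 h (0 genes) 1 passed with the block, 1 without the 4 libraries and 0 to 1 with a library or number left out. This gene was Spry1 with the block (edgeR adjusted p = 0.026) and without the 4 libraries (edgeR adjusted p = 0.0038). Spry1 passed there in 3 of 14 settings, not counting single libraries left out. In uninjured BALF against media at 24 h (0 genes) the same settings gave 1, 1 and 0 to 1, and Spry1 was the gene with the block (edgeR adjusted p = 0.028). For 24 against 6 h in injured BALF (5 genes) 2 passed at 0.01, 2 with libraries summed and 1 to 5 with a library or number left out. In uninjured BALF (6 genes) 3 to 8 did. In media (1 gene) 2 passed with the block and 2 by DESeq2, 0 at 0.01, with only the groups compared, with libraries summed or without the 4 libraries, and 0 to 3 with a library or number left out. For the time difference of the uninjured BALF effect (1 gene), 2 passed by DESeq2, 0 at 0.01, with only the groups compared, with libraries summed or without the 4 libraries, and 0 to 2 with a library or number left out. For that of the injury effect (0 genes) 0 to 1 passed with a library or number left out.

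Outside the pairings named above, same-numbered libraries correlated over 0.1 in 1 to 5 of 6 pairs. The correlations ran from -0.69 (injured against uninjured BALF at 24 h) to 0.82 (24 against 6 h in media). The block there thus joins some libraries that deviated together and some that did not. In females at 24 h, injured BALF replicate 1 correlated best with uninjured BALF replicate 3, and replicate 3 best with replicate 1. Female uninjured BALF 24 h replicate 1 had a mesothelial sum of 50.9 CPM, against 15.7 and 22.4 CPM in replicates 2 and 3. Whether numbers were exchanged there was not tested. Fits with the block, with libraries summed or without a number follow the labels as given. With the block, 8 genes passed in injured BALF against media at 6 h, with Dusp6 at 0.68 (edgeR adjusted p = 0.0036) and Spry4 at 0.53 (0.026) added. In uninjured BALF 9 passed, with Dusp6 at 0.48 (edgeR adjusted p = 0.045) added, and for 24 against 6 h in uninjured BALF 8 passed, with Dusp6 and Spry4 added. In media over time Dusp6 was the gene added, and no call was lost with the block. Upper-quartile scaling moved the log2 fold changes of the 10 genes by at most 0.08, and turned the sign of no gene that passed. With 70 counts or more in each library, depth did not limit the detection of the 10 genes.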
